A study of Homo sapiens with 6 samples.

Results

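The insulin-like growth factor (IGF) axis was followed in CBS KO and WT Caco-2 cells through the ligand IGF2, its receptors, their substrates and the secreted binding proteins. Its members were taken by gene symbol from the table of expression, and 9 of the 10 listed genes were found among its 16781 genes: IGF2, IGF2R, IGF1R, INSR, IRS1, IRS2, IGFBP1, IGFBP2 and IGFBP6. IGFBP3, the other listed gene, was not analysed here. The study sequenced messenger RNA from Caco-2, an established human colon adenocarcinoma line whose cells resemble enterocytes. The CBS KO group (n = 3) carries a stable CRISPR/Cas9 knockout of CBS, delivered by a lentivirus with Cas9, the guide and puromycin resistance, and the WT group (n = 3) is labelled as wild type. The design text describes collecting cells that survived puromycin and no isolation of clones, and cells with an empty vector were not analysed here, so knockout, infection and selection cannot be told apart. Both groups were labelled as the same tumour line, and the culture medium was given as high glucose with serum.

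As background, IGF2 is a fetal growth factor that signals through the tyrosine kinase receptor IGF1R and through the insulin receptor INSR. Active receptors phosphorylate the docking proteins IRS1 and IRS2, which pass the signal to PI3K and AKT. IGF2R has no kinase: it carries IGF2 and mannose 6-phosphate enzymes to the lysosome, and so clears the ligand. Secreted IGFBPs hold IGFs outside the cell and set how much can reach a receptor. Colon cancer lines, Caco-2 among them, are known to make IGF2.

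The libraries held 12805180 to 14307287 expected counts in CBS KO and 16097680 to 16176745 in WT. Levels are CPM, the reads of a gene per 1e6 reads of its library, with the library sizes scaled by TMM, edgeR's trimmed mean method. Tests are edgeR's quasi-likelihood test over 13028 genes, and a call is a Benjamini-Hochberg adjusted p under 0.05. CBS, the gene targeted, stood at 24.6, 18.5 and 25.4 CPM in CBS KO against 48.8, 53.0 and 50.6 CPM in WT, a log2 fold change of -1.15 with SE 0.10 (edgeR, adjusted p = 1.18e-08). Called genes made up 77.2% of those tested, with 38.4% higher and 38.9% lower in CBS KO. The split depended on the scaling: 49.7% of calls were higher in CBS KO under TMM scaling. The library total in its place gave 28.6%, FPKM 28.6% and TPM 18.9%. Across all genes the log2 fold changes had a median of -0.01 under TMM, -0.36 under the library total, -0.31 in FPKM and -0.52 in TPM, so smaller changes have no settled direction. Epithelial markers summed to 5175 to 5489 TPM (transcript abundance scaled by length and library) in CBS KO and 5353 to 6248 TPM in WT. Of the 8 tested, 5 were higher in CBS KO (EPCAM, CDH17, KRT8, KRT18 and KRT20), 2 were lower (VIL1 and CDX2) and CDH1 was not called; with TPM, 2 were higher and 4 lower. Fibroblast markers, 7 of 8 in the table, summed to 42.5 to 49.1 TPM in CBS KO and 77.6 to 87.3 TPM in WT, with COL1A2 at 0 to 1 count in every library and COL1A1 as the main source. COL1A1 was not called under TMM (log2 fold change -0.12, adjusted p = 0.0897 by edgeR). Leukocyte markers, 6 of 7, summed to 91.7 to 95.0 TPM in CBS KO and 57.2 to 67.5 TPM in WT, mostly the lysosomal protein CD68, with PTPRC at 0 to 1 count. Endothelial markers, 3 of 4, summed to 2.90 to 3.11 TPM in CBS KO and 13.1 to 14.4 TPM in WT. Under TMM, 1 fibroblast marker was higher and 3 lower of 5 tested, and 2 leukocyte markers were higher and 1 lower of 3. Of 2 endothelial markers tested, 2 were lower. The part of these markers in the results below was not tested. In bulk RNA, fewer cells of a type and less RNA per cell cannot be told apart. Nothing in the labels tells separate cultures from repeated libraries, so p-values measure no more than the spread among these samples, which could be technical.

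Of the 8 members tested, 4 rose (IGFBP2, IGFBP6, IRS2 and, under TMM but not under the library total, FPKM or TPM, INSR), 3 fell (IGF2, IGF2R and IRS1) and IGF1R did not pass. That is 87.5% called, beside 77.2% of all genes tested. IGFBP1 had too few reads for the test. The CPM of the groups did not overlap for 7 of the 8 tested members, as for 79.1% of all genes tested. The other 6 called members kept their call and direction in all 15 alternative fits.

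**Figure D1:**
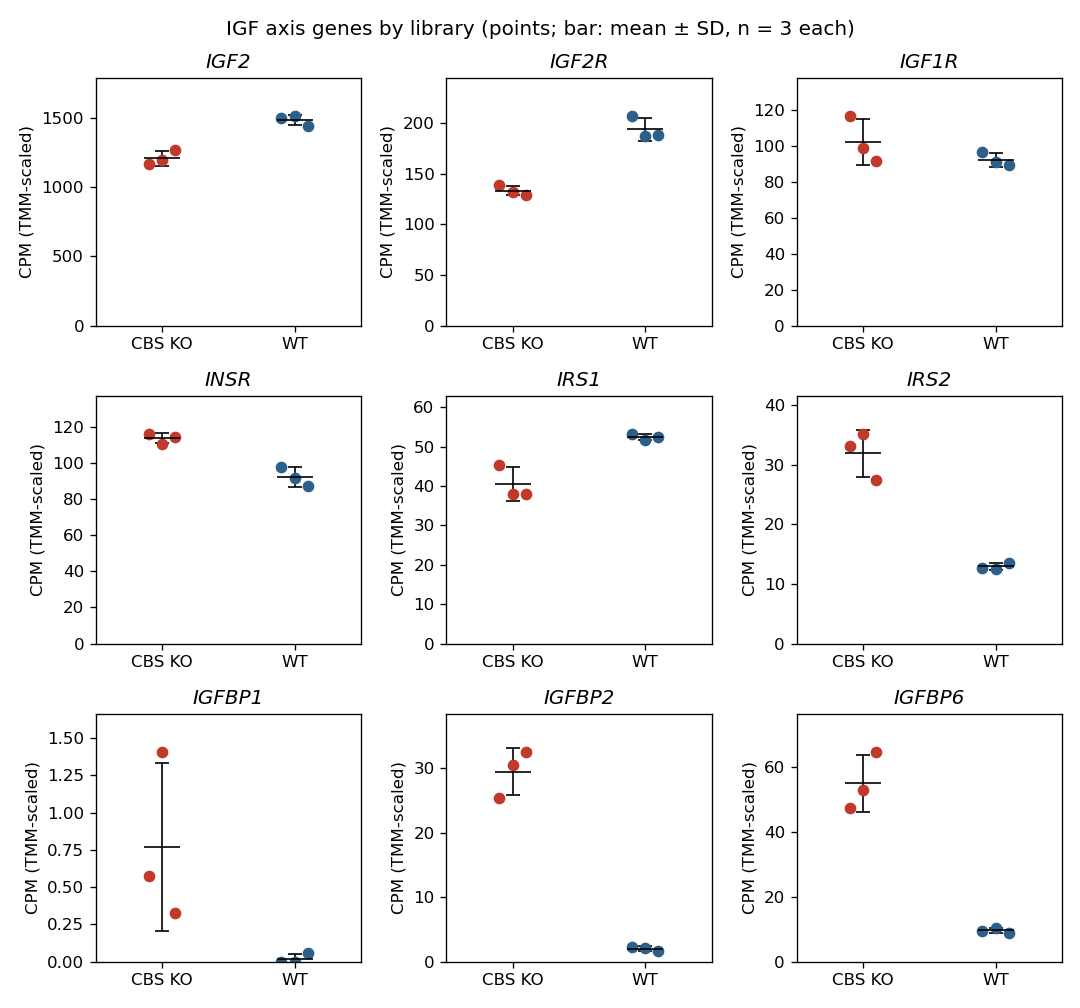
Levels of the 9 IGF axis genes in each library, in TMM-scaled CPM on linear axes that start at 0, with CBS KO on the left and WT on the right of each panel. Points are libraries and bars are means ± SD (n = 3 each); IGFBP2 lies at 25.4 to 32.5 CPM in CBS KO and 1.58 to 2.25 CPM in WT, while the groups overlap for IGF1R.

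IGF2 was lower in CBS KO, although it remained by far the most abundant member. IGF2 (Entrez 3481; chromosome 11, 2129117 to 2149566, GRCh38) had 1166, 1193 and 1269 CPM in CBS KO libraries and 1502, 1513 and 1444 CPM in WT libraries. The highest CBS KO library lay below the lowest WT library. The means were 1209 ± 53.3 CPM in CBS KO and 1486 ± 37.0 CPM in WT (SD, n = 3 each), and IGF2 fell 1.23-fold (log2 fold change -0.30 with SE 0.07; edgeR, adjusted p = 0.000589). The size of the fall hung on the scaling, with -0.65 for the library total, -0.64 for FPKM and -0.88 for TPM. Set against the median of all genes in each fit, these were -0.29, -0.34 and -0.36, near the -0.29 of TMM. By mean TPM, IGF2 ranked 318th of the genes in the table in CBS KO and 197th in WT. INS-IGF2, a read-through gene annotated over the same locus, was not analysed here, and its reads could be counted under IGF2.

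The clearance receptor fell, while the direction for both kinase receptors hung on the scaling. IGF2R (Entrez 3482; chromosome 6, 159969082 to 160111504) had 139, 132 and 129 CPM in CBS KO and 207, 187 and 188 CPM in WT. Every CBS KO library was below every WT library. The means were 133 ± 4.77 CPM in CBS KO and 194 ± 11.2 CPM in WT (SD, n = 3 each), and IGF2R fell 1.46-fold (log2 fold change -0.54 with SE 0.06; edgeR, adjusted p = 3.7e-07), with -0.50 to -1.12 over all fits.

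INSR (Entrez 3643; chromosome 19, 7112265 to 7294414) had 116, 111 and 114 CPM in CBS KO and 97.8, 91.7 and 87.2 CPM in WT. It was higher in each CBS KO library than in any WT library on this scale. The means were 114 ± 2.77 CPM in CBS KO and 92.2 ± 5.31 CPM in WT, and the 1.23-fold rise passed (log2 fold change 0.30 with SE 0.06; edgeR, adjusted p = 0.000329). This direction is not settled. The log2 fold change was -0.053 with the library total (adjusted p = 0.463 by edgeR). It was -0.046 with FPKM (adjusted p = 0.566 by limma) and -0.27 with TPM (adjusted p = 0.0148 by limma). Relative to the median of all genes in each fit, INSR stood at 0.31 under TMM and 0.31 under the library total. On that basis it stood at 0.26 in FPKM and 0.25 in TPM. INSR thus lay above that median on each scale, while the sign of its own fold change varied. IGF1R (Entrez 3480; chromosome 15, 98648539 to 98964530), the main receptor of IGF1 and IGF2, had 117, 98.7 and 91.9 CPM in CBS KO and 96.6, 91.3 and 89.2 CPM in WT. The groups overlapped, and replicate 1 of CBS KO stood above the other 5 libraries. IGF1R averaged 102 ± 12.8 CPM in CBS KO and 92.4 ± 3.81 CPM in WT (SD, n = 3 each) and was not called (log2 fold change 0.15, SE 0.08, interval -0.02 to 0.32, adjusted p = 0.092 by edgeR). Without CBS KO replicate 3 it passed as higher (0.21, adjusted p = 0.00325 by edgeR), and without CBS KO replicate 1 the value was 0.033 (adjusted p = 0.66 by edgeR). IGF1R passed as lower with the library total (-0.20, adjusted p = 0.0480 by edgeR). It also did with FPKM (-0.31, adjusted p = 0.0281 by limma) and TPM (-0.53, adjusted p = 0.00264 by limma). Relative to the median of all genes, IGF1R stood at 0.16 under TMM and 0.16 under the library total. Unlike INSR, it lay near that median in FPKM (0.0017) and in TPM (-0.017).

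For IGF1R the values per length carry a further shift. The length that the deposited counts and FPKM imply (reads divided by FPKM and by the library total) was 9901, 10465 and 11203 bases in CBS KO against 9729, 9394 and 9732 bases in WT. For IGF2, IGF2R, INSR, IRS1 and IRS2 the implied length differed by less than 1% over the 6 libraries. FPKM and TPM of IGF1R are thus divided by a longer length in CBS KO, and its fold changes on these scales are lower than those of its counts.

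The promoter of IGF2R is shown because it holds a repeated motif. The 250 bases before its RefSeq start (GRCh38.p14, chr6:159968832-159969081, plus strand) have capitals for the E-box CACGTG, which is bound by MYC, USF and TFEB family factors, and for the GC box GGGCGG, bound by SP1, on either strand.
IGF2R promoter: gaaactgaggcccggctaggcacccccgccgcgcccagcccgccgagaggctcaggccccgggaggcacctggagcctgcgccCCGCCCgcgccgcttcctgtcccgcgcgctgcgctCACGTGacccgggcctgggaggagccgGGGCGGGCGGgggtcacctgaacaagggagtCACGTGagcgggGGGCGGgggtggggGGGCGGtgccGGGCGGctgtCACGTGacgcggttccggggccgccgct
The E-box was found at 3 places, from 132, 74 and 28 bases before the start, and the GC box at 6 places. At least 1 E-box stood in 6.34% of 35116 RefSeq promoter windows of this length, and 3 or more in 0.0797%. The cut of 3 is the count found in IGF2R, applied to this motif alone of 6 searched, so that share is no test. Of the 8 listed genes with an entry, IGFBP3 included, IGF2R alone held the motif, and 8 of 8 held a GC box, found in 42.6% of all windows. IGF2 and IGFBP1 were not among the entries. A match describes letters and shows no binding.

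The substrates moved apart. IRS1 (Entrez 3667; chromosome 2, 226731312 to 226799820), a docking protein of the insulin and IGF1 receptors, had 45.4, 37.9 and 38.0 CPM in CBS KO and 53.2, 51.6 and 52.4 CPM in WT. Each CBS KO library was below each WT library, replicate 1 least so. The means were 40.4 ± 4.33 CPM in CBS KO and 52.4 ± 0.775 CPM in WT, and IRS1 fell 1.30-fold (log2 fold change -0.37 with SE 0.08; edgeR, adjusted p = 0.000332). IRS2 (Entrez 8660; chromosome 13, 109752695 to 109786583), the docking protein that insulin represses and fasting induces in liver, had 33.1, 35.2 and 27.5 CPM in CBS KO and 12.7, 12.5 and 13.5 CPM in WT. The lowest CBS KO library was above every WT library. The means were 31.9 ± 3.98 CPM in CBS KO and 12.9 ± 0.545 CPM in WT, and IRS2 rose 2.46-fold (log2 fold change 1.30 with SE 0.10; edgeR, adjusted p = 2.95e-09). The rise was 0.57 to 1.39 on the log2 scale over all fits. The expected counts of IRS2 were not whole numbers, so some of its reads may have been shared with other features, which was not tested.

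The IRS2 promoter is shown for an insulin response element, TGTTTTG, a sequence through which FOXO factors act on insulin-repressed genes in liver. The 250 bases before the RefSeq start (GRCh38.p14, chr13:109786584-109786833, minus strand) are written along the gene, with capitals for that element and for GC boxes.
IRS2 promoter: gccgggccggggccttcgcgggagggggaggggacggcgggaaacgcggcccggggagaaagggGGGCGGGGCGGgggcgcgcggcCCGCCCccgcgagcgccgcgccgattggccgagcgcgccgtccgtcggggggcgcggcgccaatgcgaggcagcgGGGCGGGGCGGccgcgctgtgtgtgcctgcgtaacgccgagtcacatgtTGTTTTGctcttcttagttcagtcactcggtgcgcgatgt
The element lay 40 to 34 bases before the start on the gene's strand, and GC boxes were found at 5 places, some of them overlapping. TGTTTTG occurred on either strand in 4.30% of all windows, and among the 8 listed genes with an entry in that of IRS2. The other motifs searched were the FOXO site GTAAACA (2.98% of windows), the AP-1 site TGANTCA (6.57%) and the TATA box TATAAA (10.7%). GTAAACA was found in the window of IGFBP6, 186 to 180 bases before the RefSeq start, at a place that GENCODE annotates as first exon and not as upstream sequence. Neither of the others was found in any of these genes.

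Binding proteins gave the largest changes among the members. IGFBP2 (Entrez 3485; chromosome 2, 216632828 to 216664436), a binding protein with a preference for IGF2, had 25.4, 30.6 and 32.5 CPM in CBS KO against 2.25, 2.14 and 1.58 CPM in WT. The lowest CBS KO library stood more than 10 times above the highest WT library. These levels rest on 310, 348 and 400 reads in CBS KO and on 41, 39 and 29 reads in WT. The means were 29.5 ± 3.67 CPM in CBS KO and 1.99 ± 0.358 CPM in WT, and IGFBP2 rose 14.8-fold (log2 fold change 3.88 with SE 0.14; edgeR, adjusted p = 4.62e-13). Its fold change stood at the 99.4th percentile of all genes tested.

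IGFBP6 (Entrez 3489; chromosome 12, 53097667 to 53102340), the binding protein with the strongest preference for IGF2 over IGF1, had 47.1, 52.8 and 64.5 CPM in CBS KO against 9.50, 10.4 and 8.85 CPM in WT. The groups lay far apart, and CBS KO replicate 3 was the highest. The means were 54.8 ± 8.84 CPM in CBS KO and 9.57 ± 0.762 CPM in WT, and IGFBP6 rose 5.72-fold (log2 fold change 2.52 with SE 0.11; edgeR, adjusted p = 1.41e-11). Over all fits the log2 fold change was 1.89 to 2.61 for IGFBP6 and 2.86 to 3.97 for IGFBP2, whose lowest value came from log2(TPM + 1).

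Fold changes differed with transcript length, without a steady trend. Genes with an implied length up to 1000 bases had a median log2 fold change of 0.27 (1350 genes), those of 1000 to 2000 bases -0.01 (2897 genes), those of 2000 to 4000 bases -0.05, those of 4000 to 8000 bases -0.06, those of 8000 to 12000 bases 0.03, and those above 12000 bases -0.18 (137 genes). The implied length of IGFBP6 was 632 to 660 bases and that of IGF2R 13744 to 13771 bases. For IGFBP2 it was 1099 to 1127 bases in CBS KO and 958 to 1114 bases in WT. The part of length in these results was not tested.

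IGFBP1 (Entrez 3484; chromosome 7, 45888488 to 45893660), a liver binding protein that insulin represses and amino acid shortage induces, was close to the limit of detection. It had 7, 16 and 4 reads in CBS KO and 0, 0 and 1 read in WT. Every CBS KO library exceeded every WT library, and replicate 2 held most of the reads. The ratio of CPM was 41.2 (95% interval 6.79 to 1687 from the exact binomial, counting error only), and 3 reads correspond to 0.244 to 0.264 CPM in CBS KO and 0.164 to 0.165 CPM in WT. With no filter on low counts it was called by edgeR (adjusted p = 1.32e-05), and by DESeq2 as well (adjusted p = 0.00031).

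The promoter of IGFBP2 is shown as that of the member with the largest tested change. Of 3 RefSeq starts, the one at 216633420 lies 25 bases from that of a GENCODE transcript of the gene, and the 250 bases before it (GRCh38.p14, chr2:216633170-216633419, plus strand) hold 1 GC box, in capitals, and none of the other 5 motifs.
IGFBP2 promoter: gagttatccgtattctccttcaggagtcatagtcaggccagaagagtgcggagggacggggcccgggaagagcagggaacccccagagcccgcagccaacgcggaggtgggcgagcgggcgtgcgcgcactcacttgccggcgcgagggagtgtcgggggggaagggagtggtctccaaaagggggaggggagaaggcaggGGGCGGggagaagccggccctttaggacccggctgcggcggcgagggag

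**Figure D2:**
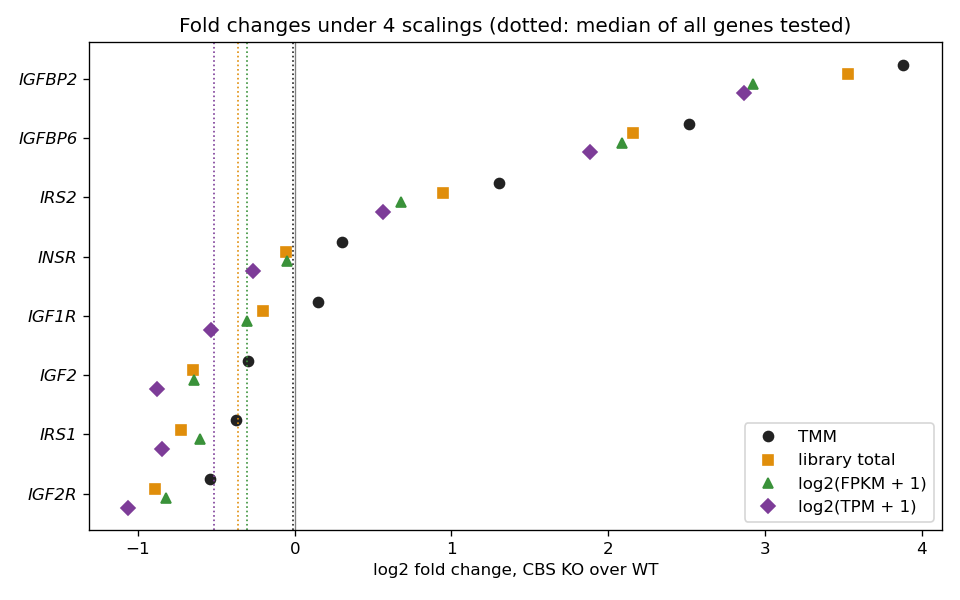
Log2 fold change of CBS KO over WT for the 8 tested members (vertical axis) with TMM, the library total, log2(FPKM + 1) and log2(TPM + 1), and dotted lines at the median of all genes in each fit. IGFBP2, IGFBP6 and IRS2 lie right of 0 on all 4 scales and IGF2, IRS1 and IGF2R left of 0, while INSR and IGF1R change side.

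Levels can be compared between genes on the TPM scale, which divides by length. In CBS KO the order of mean TPM was IGF2 (340 ± 6.78), IGFBP6 (104 ± 8.12), IGFBP2 (32.5 ± 2.08), INSR (15.4 ± 1.12), IGF1R (12.2 ± 2.98), IGF2R (12.0 ± 1.16), IRS1 (5.29 ± 0.867), IRS2 (5.03 ± 0.860) and IGFBP1 (0.790 ± 0.584). The libraries of INSR and IGF1R, of IGF1R and IGF2R, and of IRS1 and IRS2 overlapped. In WT the order was IGF2 (626 ± 15.8), IGFBP6 (27.4 ± 2.21), IGF2R (26.1 ± 1.5), INSR (18.7 ± 1.06), IGF1R (17.8 ± 0.702), IRS1 (10.2 ± 0.150), IGFBP2 (3.66 ± 0.896), IRS2 (3.05 ± 0.136) and IGFBP1 (0.0267 ± 0.0462). There IGFBP6 overlapped IGF2R, INSR overlapped IGF1R, and IGFBP2 overlapped IRS2. All are means ± SD with n = 3.

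Ratios inside a library do not depend on the scaling between libraries. The ratio of IRS2 to IRS1 was 0.879, 1.12 and 0.873 in CBS KO and 0.289, 0.292 and 0.312 in WT, from TPM. WT libraries thus held several times more IRS1 than IRS2 transcripts, and CBS KO libraries held about as many of each. The log2 ratio differed by 1.68 (exact permutation test over 6 libraries, two-sided, p = 0.1, the smallest that 3 against 3 allows). IGF2 over IGF2R was 26.4, 28.4 and 30.9 in CBS KO and 22.7, 25.4 and 24.0 in WT, higher in each CBS KO library (log2 difference 0.25, exact permutation p = 0.1).

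IGF1R over INSR was 0.927, 0.780 and 0.657 in CBS KO and 0.928, 0.970 and 0.962 in WT from TPM (log2 difference -0.29, exact permutation p = 0.1). Replicate 1 of CBS KO lay next to the WT libraries. From expected counts the groups overlapped, with 1.01, 0.893 and 0.805 in CBS KO against 0.988, 0.996 and 1.02 in WT (log2 difference -0.16, exact permutation p = 0.3). With the 3 ratios adjusted together, each p from TPM stayed at 0.1. The summed TPM of IGFBP1, IGFBP2 and IGFBP6, a sum chosen after their values were seen and not tested, came to 0.368, 0.405 and 0.438 of that of IGF2 in CBS KO and to 0.0497, 0.0530 and 0.0460 in WT. The sum leaves out genes that are not listed members. Among these, IGFBP4 averaged 75.8 TPM in CBS KO and 25.2 TPM in WT, and IGFBP7 11.7 and 25.6 TPM.

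**Figure D3:**
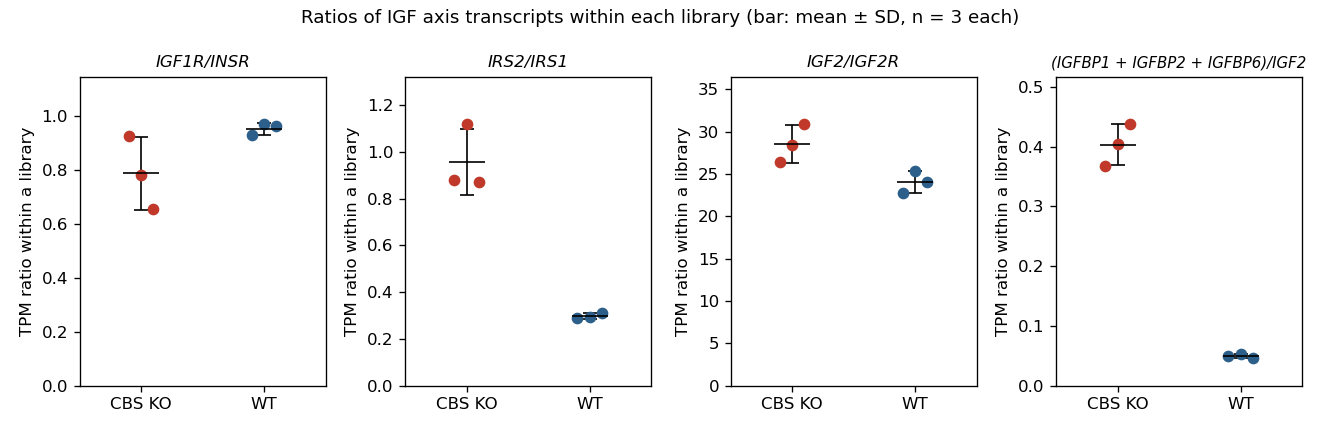
TPM ratios within each library for 3 pairs of members and for the sum of 3 binding proteins over IGF2, on linear axes from 0, with CBS KO left of WT. Points are libraries and bars are means ± SD (n = 3 each); the IRS2/IRS1 ratio is 0.873 to 1.12 in CBS KO and 0.289 to 0.312 in WT.

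Other genes of the pathway were grouped by role into 7 lists, of which 104 of 110 genes were in the table. The counts below are from the same edgeR fit, with adjusted p under 0.05, and should be read beside the 77.2% of all genes that were called. Those on the other scales stand beside medians of all genes of -0.36 (library total), -0.31 (FPKM) and -0.52 (TPM). Set against that median, list medians under TMM and TPM were 0.71 and 0.63 (ligands), 0.26 and 0.18 (IGF2 regulators), 0.48 and 0.34 (adaptors). The others were 0.03 and -0.05 (PI3K and AKT), 0.47 and 0.38 (RAS), 0.76 and 0.66 (FOXO), -0.16 and -0.26 (lysosomal route). Genes picked with their values known aside, each gene named from these lists as having risen or fallen kept its direction on the 4 scales. STC1 alone among them lost its call. The sizes given are those under TMM. Each of these rises was smaller with TPM, and each of these falls but that of DOK1 was larger. Ligands, binding proteins and their modulators had 4 tested genes of 9 in the table, with 3 higher and 1 lower (median log2 fold change 0.70, and 0.11 to 0.70 over the 4 scalings). IGFBP4, which the protease PAPPA cleaves to free IGFs, rose 4.53-fold, with 117 ± 13.6 CPM in CBS KO and 25.9 ± 0.602 CPM in WT (adjusted p = 6.91e-13 by edgeR). The PAPPA inhibitors STC2 and STC1 rose 1.72-fold and 1.53-fold, STC1 losing its call with TPM (log2 fold change 0.03, adjusted p = 0.791 by limma). IGFBP7, a distant relative with low affinity for IGFs, fell 1.41-fold. IGF1 had 1, 2 and 2 reads in CBS KO and 2, 0 and 3 in WT, IGFBP5 had 0 to 1 read in each library, and PAPPA 0 to 2, so IGF2 was the IGF ligand measured here.

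Regulators of IGF2 mRNA and of its promoter gave 4 higher and 3 lower of 7 tested (median 0.25). These became 2 higher and 3 lower under the library total and in FPKM (median -0.11 in both), and 2 higher and 5 lower in TPM (median -0.34). IGF2BP1 and IGF2BP3, which bind IGF2 mRNA, fell 1.47-fold and 1.85-fold, with IGF2BP1 at 445 ± 25.1 CPM in CBS KO and 656 ± 8.71 CPM in WT. IGF2BP2, of the same family and added with its value known, had a log2 fold change of 0.25 under TMM (edgeR, adjusted p = 0.0016) but -0.34 in TPM (limma, adjusted p = 0.00198). PLAG1, an activator of the fetal IGF2 promoters, rose 2.70-fold and LIN28B, which blocks let-7 maturation, 1.98-fold.

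Receptor adaptors and inhibitors gave 14 higher and 4 lower of 24 tested (median 0.46), which became 10 and 10 with the library total, 8 and 10 with FPKM, and 6 and 10 with TPM (median -0.17). GRB10, an adaptor that inhibits the insulin and IGF1 receptors, rose 2.78-fold, with 126 ± 4.94 CPM in CBS KO and 45.4 ± 3.24 CPM in WT (adjusted p = 8.46e-12 by edgeR). The membrane scaffold CAV1 rose 3.22-fold and the cytokine signalling inhibitor SOCS2 2.28-fold, and the docking protein DOK1 fell 3.31-fold. SOCS2 rests on 58, 39 and 59 reads in CBS KO and 27, 42 and 35 in WT. Its log2 fold change with TPM was 0.36 (adjusted p = 0.0393 by limma). DOK1 rests on 10, 15 and 20 reads in CBS KO and 79, 69 and 80 in WT. Genes of PI3K and AKT were divided much as all genes were, with 7 higher and 7 lower of 19 tested (median 0.02). That is 73.7% called, beside 77.2% of all genes tested, of which 38.4% were higher and 38.9% lower. With TPM, 3 were higher and 13 lower, where 18.9% of the calls over all genes were higher. TRIB3, a pseudokinase that binds AKT, rose 2.77-fold and the catalytic subunit PIK3CA 1.85-fold. TBC1D4, an AKT substrate in glucose transporter traffic, fell 2.60-fold, and the kinase AKT1, picked with its value known, was at 137 CPM in CBS KO and 135 CPM in WT and was not called under TMM (edgeR, adjusted p = 0.821). AKT1 was called lower under the library total (-0.34), in FPKM (-0.33) and in TPM (-0.56).

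RAS and MAP kinase genes gave 11 higher and 4 lower of 18 tested (median 0.46), and 4 higher and 8 lower with TPM (median -0.13). The RAF inhibitor SPRED1 rose 2.15-fold, the kinases MAP2K1 and MAPK3 1.9-fold and 1.86-fold, and NRAS 1.81-fold. With TPM the log2 fold changes were 0.42 for SPRED1, 0.33 for MAP2K1, 0.22 for MAPK3 and 0.26 for NRAS. FOXO factors and genes known as FOXO targets in liver gave 7 higher and 2 lower of 11 tested (median 0.75), and 5 higher and 3 lower with TPM (median 0.14). PCK1, the rate-limiting enzyme of gluconeogenesis, rose 10.5-fold, with 94.2 ± 6.01 CPM in CBS KO and 8.97 ± 0.793 CPM in WT (adjusted p = 5.05e-15 by edgeR). TXNIP, an inhibitor of glucose uptake, rose 6.31-fold, the coactivator CITED2 2.96-fold and FOXO1 2.01-fold. The 2 called lower, picked with their values known, were PCK2 and KLF15, with log2 fold changes of -0.50 and -0.75 under TMM. IRS2 and IGFBP1, described above, are also known as FOXO targets in liver and were not counted here.

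The lysosomal cargo route that IGF2R serves gave 2 higher and 5 lower of 10 tested (median -0.17), and 1 higher and 9 lower with TPM (median -0.77). AP1M1 and GGA2, adaptors that load mannose 6-phosphate receptors into vesicles, fell 2.06-fold and 1.76-fold, and NAGPA, which uncovers the mannose 6-phosphate tag, fell 1.40-fold. PLAUR, the urokinase receptor that IGF2R can bind, rose 23.0-fold. M6PR, the other mannose 6-phosphate receptor, picked with its value known, was at 196 CPM in CBS KO and 212 CPM in WT and was not called under TMM (log2 fold change -0.11, adjusted p = 0.107 by edgeR). It was called lower under the library total (-0.46), in FPKM (-0.46) and in TPM (-0.69).

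**Figure D4:**
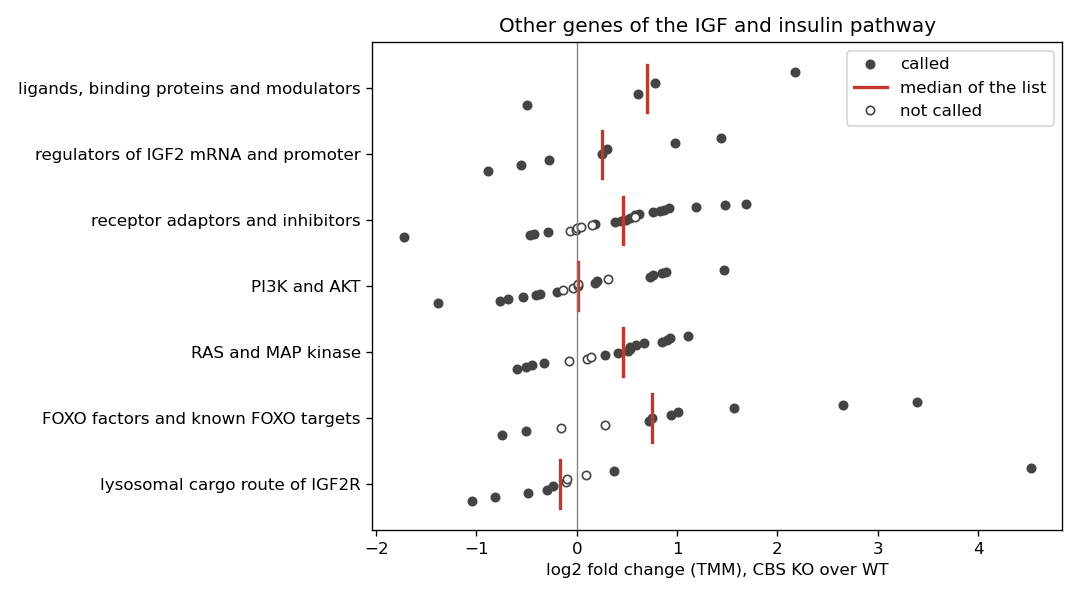
Log2 fold change (TMM) of CBS KO over WT for the tested genes of 7 pathway lists, 1 row a list; filled points passed an adjusted p under 0.05, open points did not, and red bars are list medians. The medians run from -0.17 for the lysosomal cargo route to 0.75 for the FOXO list.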

How the data were processed

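Messenger RNA of 6 Caco-2 libraries (3 CBS KO, 3 WT) was measured, grouped by sample title. Per the submitters' processing notes, the build was GRCh38 and the tools were StringTie 2.1.6, HISAT2 2.2.1, cutadapt 1.9, edgeR and DESeq2, with no role stated for any. The authors deposited expected counts per gene, not normalised, of which 7.12 to 7.43% are not whole. The authors also deposited FPKM and TPM values, both scaled by length and depth, per the file headers. The rule for assigning reads is not given in the sources used here.

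Expected counts were rounded, filtered with filterByExpr (13028 genes kept), scaled by TMM and tested by edgeR 4.0.16 with robust quasi-likelihood settings and no covariate (R 4.3.3). This procedure was tested on simulated counts in which most genes were unchanged, whereas most genes were called in these data. That test cannot tell which scaling suits these data. Alternatives used limma 3.58.1 on log2(FPKM + 1), log2(TPM + 1) and log2(TPM + 0.1), and DESeq2 1.42.0. SEs were derived from edgeR's F statistics and estimates. The exact binomial interval of IGFBP1 and the limits of 3 counts cover counting error only. The 95% interval of IGF1R is from the edgeR fit and takes in the spread among libraries.

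The members and pathway lists were chosen with earlier results of these data known. Named genes are the members, CBS and up to 4 called genes per pathway list. The latter have the largest change and a mean of at least 1 CPM. Other pathway genes given with a fold change are marked as chosen after their values were seen. IGF1, IGFBP5 and PAPPA, given by their reads, and the cell type markers lie outside this rule and carry no mark. A gene that this rule names is not reported here. Promoters and positions are from RefSeq (GRCh38.p14), matched by symbol for 8 of the 10 listed genes. Of 5 ratios planned, 2 were not computed: IGFBP3 was not analysed here, and IGFBP1 was listed at 0 in 2 WT libraries.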

Additional observations from a re-analysis of the deposited data

How the results depend on the processing

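Over all genes, 4998 were called higher and 5062 lower with TMM. The higher calls numbered 2966 with the library total, 2823 with log2(FPKM + 1), 1969 with log2(TPM + 1) and 1956 with log2(TPM + 0.1), and the lower calls 8451 and 8432 in the 2 TPM fits. Members called lower numbered 3 with TMM, 4 with the library total and with FPKM, and 5 in both TPM fits, and those called higher were 4 with TMM, 3 in each of those fits, and 5 with no filter, with DESeq2 and without CBS KO replicate 3. Pathway genes called higher fell to 23 in both TPM fits, against 48 with TMM, and those called lower were 26 with TMM, 44 with the library total and with FPKM, and 49 in both TPM fits. The log2 fold change of IGF1R became -0.20 under the library total, -0.31 in FPKM, and -0.53 and -0.57 in the TPM fits. That of INSR became -0.053, -0.046, -0.27 and -0.28 in the same order. The cause was not tested, although the median of all genes moved in the same fits. Calls for IGF2, IGF2R, IRS1, IRS2, IGFBP2 and IGFBP6 held in all 16 fits, those without each replicate included. With the replicate number as a block, 4986 genes were higher and 5058 lower, and the calls of the members did not change. Same-numbered libraries correlated at 0.07, 0.01 and 0.04 in their deviations from the group means, and the other pairs at -0.06 to 0.02. These values were all small. Each WT library and CBS KO replicates 1 and 3 correlated best with the library of the same number. CBS KO replicate 2 correlated best with WT replicate 3 (0.02). Such small values cannot settle whether the numbers pair the samples, and the main fit used no pairing. Depth limits IGFBP1, with 27 reads in CBS KO and 1 in WT.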
